A study of Mus musculus with 6 samples.

Results

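The nuclear receptors for retinoic acid, Rara, Rarb and Rarg, and their obligate partners, the retinoid X receptors Rxra, Rxrb and Rxrg, were followed in brain RNA of mice given ethanol or saline as newborns. All 6 genes were taken from the deposited expression table by symbol, out of 22180 genes that a probe row of the array names alone. Each receptor had exactly 1 such row, so no choice between rows was made. The samples were 6 Affymetrix arrays, 3 per group, each with total RNA pooled from 3 C57BL/6J mice, an inbred strain. Pups of the ethanol group received ethanol under the skin at 2.5 g/kg, dissolved in NaCl at 0.15 M. It was given on postnatal day 4 and again on postnatal day 7, each time as 2 injections separated by 2 hours. The control group is labelled as given saline. All 18 mice were male. The tissue is labelled whole hippocampus, and the age is given as 21 days in the sample characteristics and as day 70 in the treatment protocol. On the first principal component of all rows, saline array 1 lay at -19.9, beside the ethanol arrays (-19.1 to -1.59), while the other saline arrays lay at 23.7 and 32.6. The receptor differences are therefore also given without it.

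Retinoic acid, made in cells from vitamin A, acts by binding RAR proteins, which sit on DNA as heterodimers with RXR proteins. Without ligand the pair recruits corepressors, and with ligand it exchanges them for coactivators and turns on genes such as Rarb itself and the retinoic acid hydroxylase Cyp26a1. RXRs also pair with thyroid hormone, vitamin D, PPAR and liver X receptors, so they serve many hormone and lipid signals. In the forebrain, RARα is known for a part in homeostatic scaling of synapses, and RARβ and RXRγ are best known from the striatum.

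The promoter sequences were read for direct repeats of the kind that RAR and RXR pairs are known to bind. In RefSeq sequence of mouse build GRCm38.p6, direct repeats of the unit AGGTCA or its variants, namely GGGTCA and also AGTTCA and likewise GGTTCA, in any combination, were searched on both strands in the 250 bases before each annotated start. With a spacer of 5 bases, the spacing best known for RAR and RXR pairs, a repeat was present in 29 of 32851 windows, or 0.0883%. Among 13 windows of the 6 receptor genes it was present only in that of Rarb. The only Rarb window, at 16575427 to 16575726 on chromosome 14, lies within the gene, which extends to 17082331 on the minus strand. Sequence before that outer end was thus not searched. In Rarb the repeat lay at -53 to -37 from the start in this window, and in Cyp26a1 a repeat lay on the opposite strand at -32 to -16. Both are shown on the strand of the gene with the repeat units in capitals, because no other gene of the receptor, retinoid metabolism, retinoid binding or retinoic acid responsive lists held this spacing in its windows.
Rarb, chr14:16575477-16575569, minus strand: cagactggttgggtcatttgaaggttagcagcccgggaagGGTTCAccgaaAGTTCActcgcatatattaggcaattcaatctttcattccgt
Cyp26a1, chr19:37697736-37697807, plus strand: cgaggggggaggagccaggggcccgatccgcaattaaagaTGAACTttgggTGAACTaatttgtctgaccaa
Repeats with spacers of 1 and 2 bases, which RXR pairs also bind, were found in no window of the 6 genes, against 0.164% and 0.174% of all windows. A match is a description of the letters and not of binding.

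None of the 6 receptor genes differed between ethanol and saline beyond the spread of the arrays. With limma, fitted to all 41345 rows and adjusted by Benjamini-Hochberg, 0 of 6 had an adjusted p under 0.05, and 0% of all rows did. At an unadjusted p under 0.05 there were also 0 of 6, where 5.54% of all rows passed. The values of ethanol and saline arrays overlapped for each of the 6 genes, taken singly, whereas over all rows the groups failed to overlap in 11.1%. The sum of the 6 linear levels did not overlap, at 882 to 896 on the ethanol arrays and 844 to 875 on the saline arrays. It also did not overlap with quantile normalization, with arrays centred on their medians or after cyclic loess. These scalings reuse the same 6 arrays and so are not further evidence. A full separation of 3 arrays from 3 arises in a fraction of 0.1 of all possible groupings, and each receptor taken singly overlapped. The brightest rows, Rxrb and Rara, weigh most in this sum, which was computed after the values had been seen and was not tested. Of the 6 differences 5 were above 0 and 1 was below. Their median was 0.015 on the log2 scale, beside 0.020 for all genes, of which 57.2% were above 0.

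**Figure D1:**
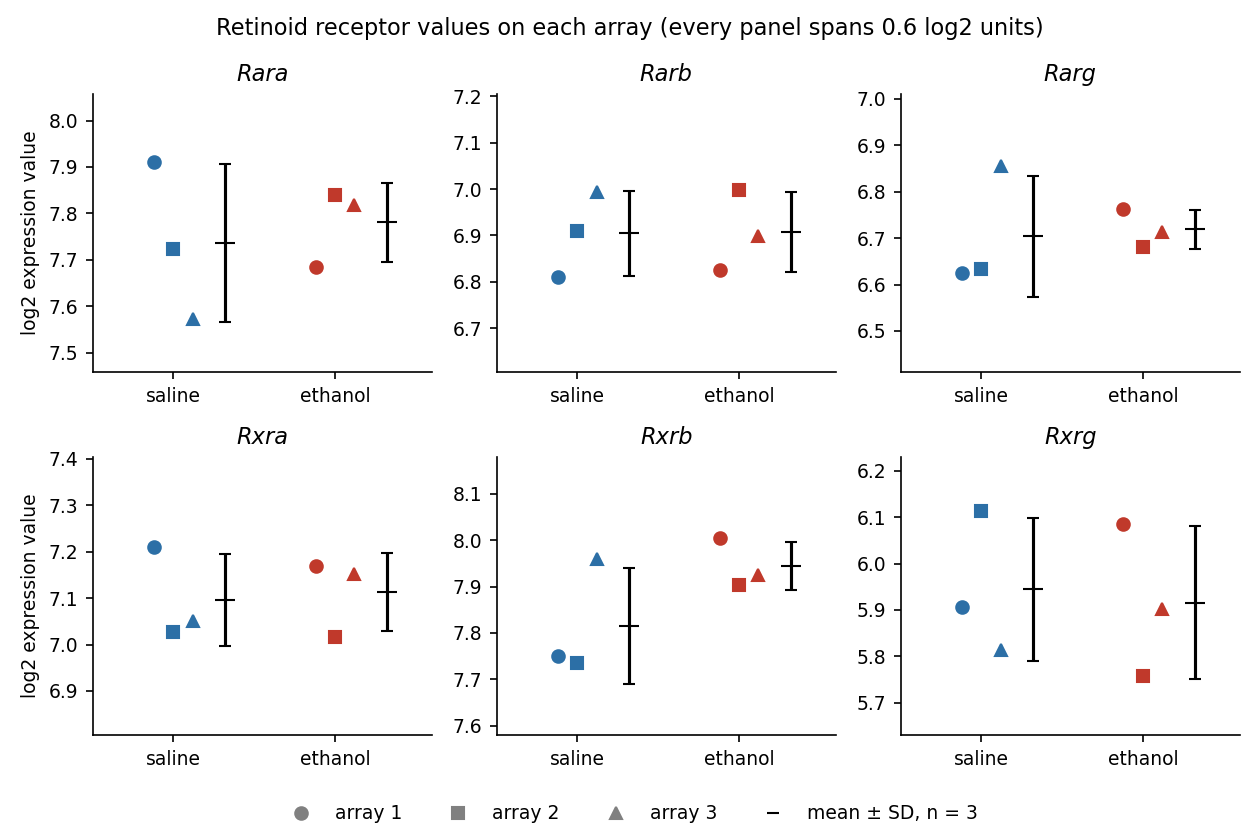
Log2 expression value (vertical axis) of each receptor gene on the 3 saline (blue) and 3 ethanol (red) arrays; black bars are the mean ± SD of 3 arrays, and every panel spans 0.6 log2 units. The groups overlap in each panel, and for Rxrb saline array 3, at 7.96, lies among the ethanol arrays while the other saline arrays lie below them.

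Among the retinoic acid receptors, Rara, encoding RARα, had log2 values of 7.68, 7.84 and 7.82 on ethanol arrays 1 to 3 and 7.91, 7.72 and 7.57 on saline arrays 1 to 3. The saline arrays enclosed all ethanol arrays, with saline array 1 highest and saline array 3 lowest. The ethanol mean was 7.78 ± 0.08 and the saline mean 7.74 ± 0.17 (SD, n = 3). The difference, ethanol minus saline, was 0.045 ± 0.107 (log2 ± SE), with an adjusted p of 0.951 in limma.

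Rarb, which encodes RARβ and is a classic target of retinoic acid, had values of 6.83, 7.00 and 6.90 in ethanol and 6.81, 6.91 and 6.99 in saline. Both groups ran over nearly the same range. Its difference, 0.0029 ± 0.087, was the smallest of the 6, with a 95% interval from -0.20 to 0.21. On the linear scale that interval runs from 0.869 to 1.16 times the saline level. Cyp26a1, the other gene shown above, differed by 0.047 ± 0.096, with values between 5.45 and 5.70.

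Rarg, which encodes RARγ, had values of 6.76, 6.68 and 6.71 in ethanol and 6.62, 6.63 and 6.85 in saline. The ethanol arrays lay between saline array 2 and saline array 3, which was the highest of all. The means were 6.72 ± 0.04 and 6.70 ± 0.13 (SD, n = 3), and the difference was 0.015 ± 0.090, with an adjusted p of 0.981 in limma.

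Among the retinoid X receptors, Rxrb, encoding RXRβ, showed the largest difference of the family. Its values were 8.00, 7.90 and 7.93 in ethanol and 7.75, 7.73 and 7.96 in saline. Saline arrays 1 and 2 lay below every ethanol array, whereas saline array 3 lay above ethanol arrays 2 and 3. The ethanol mean was 7.94 ± 0.05 and the saline mean 7.81 ± 0.13 (SD, n = 3). The difference of 0.13 ± 0.090 had an unadjusted p of 0.192 and an adjusted p of 0.862 in limma, and its 95% interval ran from -0.083 to 0.34. In size this difference exceeded those of 77.4% of all genes. An exact permutation test over the arrays, two-sided, gave p = 0.3, where 3 arrays against 3 cannot give less than 0.1.

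Rxra, which encodes RXRα, had values of 7.17, 7.02 and 7.15 in ethanol and 7.21, 7.03 and 7.05 in saline. Ethanol array 2 was the lowest and saline array 1 the highest, so the groups interleaved. The difference was 0.016 ± 0.088, with an adjusted p of 0.977 in limma.

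Rxrg, which encodes RXRγ, had the only difference below 0. Its mean level, 5.93, was the dimmest of the 6 and above that of 23.9% of genes. Whether this row lies above background was not tested. Its values were 6.09, 5.76 and 5.90 in ethanol and 5.91, 6.11 and 5.81 in saline, a spread over the 6 arrays of 0.35, the widest of the family. The difference was -0.029 ± 0.119, with a 95% interval from -0.31 to 0.25 and an adjusted p of 0.970 in limma. Its sign turned to 0.019 with quantile normalization, 0.010 with arrays centred on their medians and 0.015 after cyclic loess, so no direction can be given for it. The standard deviation within groups was 0.159 for Rxrg and 0.134 for Rara, and 0.089 to 0.097 for the other 4 genes, beside a median of 0.108 over all genes.

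**Figure D2:**
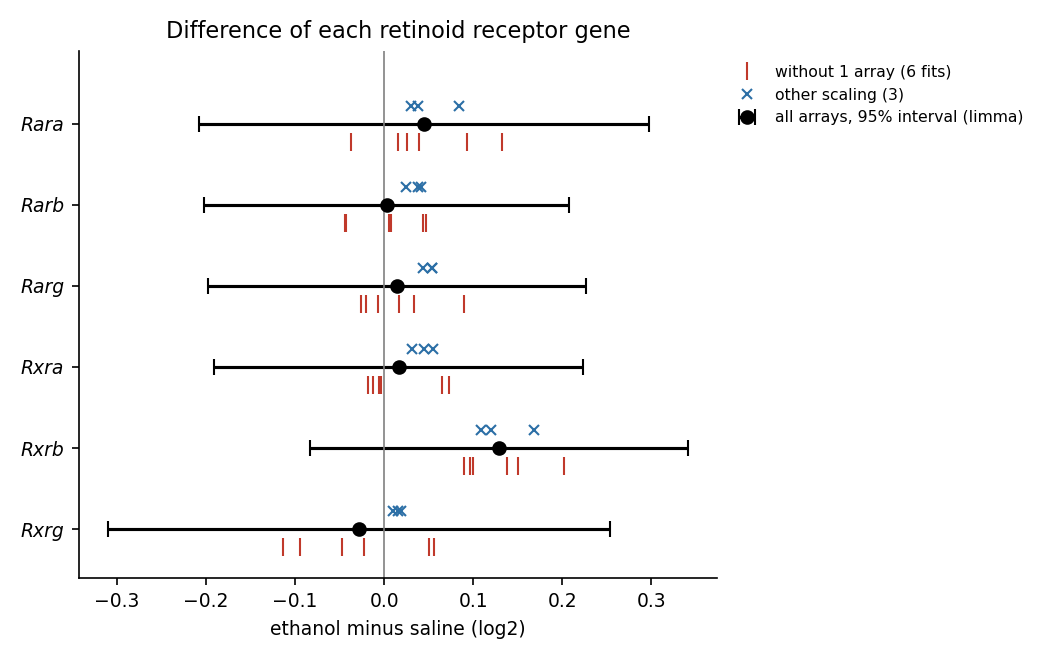
Ethanol minus saline (log2, horizontal axis) for each receptor gene: black points with 95% intervals are the limma fit to all 6 arrays, red ticks the fits without 1 array and blue crosses 3 other scalings between arrays. Every interval holds 0, and only for Rxrb do all ticks and crosses lie on 1 side of it.

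The precision of the arrays sets what these values could show. Over the 6 genes the 95% intervals, each for 1 gene and not widened for the number of genes, reached from -0.31 for Rxrg to 0.34 for Rxrb. On the linear scale they ended at 0.806 times the saline level for Rxrg and at 1.27 times for Rxrb. The narrowest intervals, those of Rarb and Rxra, ended at 0.21 and 0.22. RNA of a mixed tissue was measured, so fewer cells of a type and less RNA per cell cannot be told apart.

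The direction of the family was checked against the arrays 1 at a time. Without saline array 1, the differences were 0.13 for Rara, -0.044 for Rarb, -0.025 for Rarg, 0.073 for Rxra, 0.097 for Rxrb and -0.047 for Rxrg. The signs of Rarb and Rarg thus turned, and Rara turned to -0.037 without saline array 3. Rxra turned most often, in 4 of the 6 fits without 1 array, to values of -0.018 to -0.0033. Rarg turned in 3, Rarb and Rxrg in 2 each and Rara in 1. Without saline array 3, Rxrb differed by 0.20 and Rarg by 0.090, and the ethanol arrays of both lay above the remaining saline arrays. With that array left out, the groups also failed to overlap in 23.2% of all rows, with ethanol above in 11.5%. Rxrb kept a difference above 0 without any 1 array, between 0.089 and 0.20, and was not called in any of these fits.

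**Figure D3:**
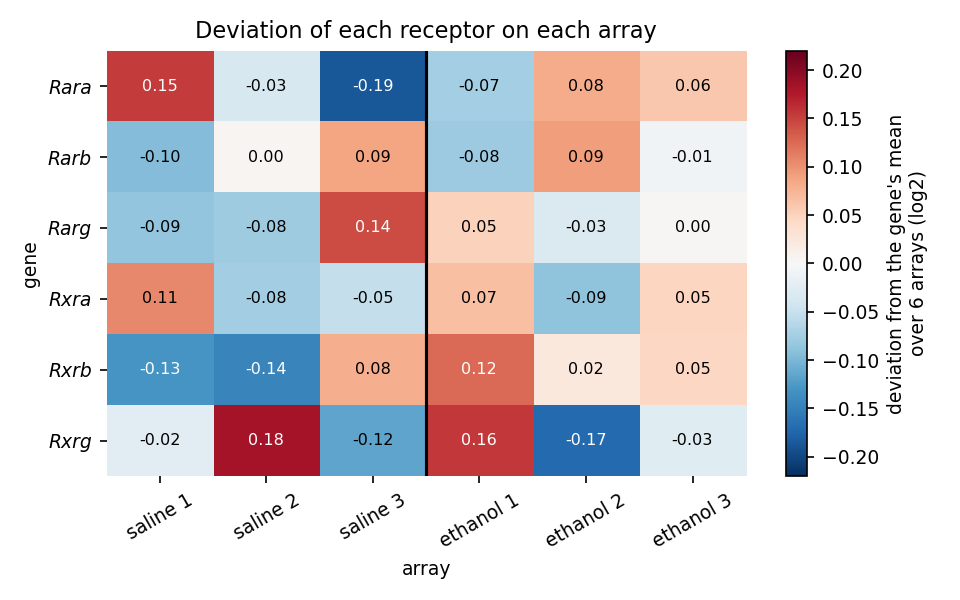
Deviation of each receptor gene (rows) on each array (columns) from that gene's mean over 6 arrays, in log2 units, with saline left and ethanol right of the line. Saline array 1 is highest for Rara (0.15) and Rxra (0.11) and among the lower arrays for Rxrb (-0.13), so no array is high or low for all 6 genes.

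The receptors did not share a common pattern over the arrays. Of the 15 pairs among the 6 genes, the strongest relations over the 6 arrays were between Rarb and Rxra (Pearson's r = -0.873, Spearman's rho = -0.943), Rarg and Rxrb (r = 0.820, rho = 0.886) and Rara and Rarg (r = -0.817, rho = -0.829). Exact permutation p-values for r were 0.0319, 0.0556 and 0.0431, and for rho 0.0167, 0.0333 and 0.0583. Adjusted over the 15 pairs, the exact p for r was 0.278 in each case and that for rho 0.250, 0.250 and 0.292. Without the 2 arrays farthest from the median of the first gene, r was -0.719 for Rarb and Rxra, 0.956 for Rarg and Rxrb and -0.250 for Rara and Rarg. For the last pair the arrays left out were saline arrays 1 and 3. Which arrays are left out depends on the gene named first. With so few arrays remaining, these values cannot show what a relation rests on. The 6 arrays cover both groups, with too few arrays to give a value within each.

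By the highest Pearson correlation over the 6 arrays, among 12842 genes brighter than the median row (12843 for Rxrg, itself below that median), the genes most like each receptor were as follows. For Rara they were Gpc6 (r = 0.990) and Hmgb2 (0.990), and for Rarb they were Ybx3 (0.996) and Trappc4 (0.990). Rarg was most like Ppcs and Mettl6, both at 0.986. Rxra was most like Krt27 (0.990) and Kcnj12 (0.987). Rxrb was most like the small nucleolar RNA gene Snora31 (0.997) and Zxdc (0.996), and Rxrg was most like Fcgr3 (0.988) and Cyp2c55 (0.987). Between 15 and 36 of these genes had an r above 0.95 with each receptor. The named genes are the highest of many correlations over only 6 arrays, so their values do not show a relation.

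The receptor genes lie on 6 chromosomes (GRCm38). Rarb, on chromosome 14 from 16430839 to 17082331, is the longest at 651 kb, and Rxrb, on chromosome 17 from 34031812 to 34038403, the shortest at 6.59 kb. The neighbours closest to them, added after the receptor values had been seen, were Top2b, a DNA topoisomerase that ends 52 bases from Rarb, and the zinc transporter gene Slc39a7, 122 bases from Rxrb. Top2b differed by 0.042 ± 0.087 and Slc39a7 by -0.037 ± 0.085. On the other side of Rxrb, at 516 bases, the collagen gene Col11a2 differed by -0.13 ± 0.092. Both neighbours of Rxrb had differences below 0, and none of the 3 was called in limma.

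Other nuclear receptors showed as little. Of 39 measured, 21 were higher and 18 lower in ethanol, 0 were called and 0 had an unadjusted p under 0.05, where 3.18% of all genes did. Their median difference was 0.024, and turned to -0.00098 with quantile normalization and -0.0031 after cyclic loess. With arrays centred on their medians it was 0.063, where that of all genes was 0.058. Among the 12 measured partners of RXR, 7 were higher and 5 lower, with a median of 0.014. The thyroid hormone receptors Thra and Thrb differed by 0.057 ± 0.091 and 0.074 ± 0.092, the vitamin D receptor Vdr by 0.0031 ± 0.074 and the liver X receptor Nr1h3 by -0.033 ± 0.071. The partner with the smallest p was the xenobiotic receptor Nr1i2, at -0.18 ± 0.10. The adipogenic receptor Pparg had values of 6.19 to 6.22 in ethanol and 6.28 to 6.32 in saline, and so was the 1 partner of 12 whose groups did not overlap, with a difference of -0.094 ± 0.068 and an adjusted p of 0.864 in limma. Over the 39 nuclear receptors the groups did not overlap in 3, with the glucocorticoid receptor Nr3c1 higher in ethanol and Pparg and Nr5a2 lower. Over all genes the ethanol arrays lay above all saline arrays in 5.74% and below them in 4.72%, so these counts lie near the share over all genes.

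Of the coactivators that ligand-bound receptors recruit, 12 of 13 were higher in ethanol, with a median of 0.086, and 0 were called. The smallest p belonged to Smarca2, a chromatin remodelling ATPase, at 0.13 ± 0.075 (adjusted p = 0.857 in limma). In 4 of the 13, namely Smarca2, Ncoa3, Ep300 and Med1, the ethanol arrays lay above all saline arrays, beside the 5.74% of all genes, and the opposite held for 0 of the 13, beside 4.72%. The coactivator genes were bright on the array, with a median level of 9.42. All genes were then ranked by brightness and cut into 10 equal groups. The median difference was 0.085 in the top group, which began at a level of 9.33. It was 0.033 in the group holding Rara and Rxrb and -0.031 in the group holding Rxrg. A part of brightness in the coactivator differences was not tested. With quantile normalization the coactivator median was 0.021 with 10 of 13 higher, and after cyclic loess it was 0.019 with 9 of 13. With arrays centred on their medians it was 0.12 with 12 of 13 higher, where the median of all genes was 0.058. Leaving out 1 array gave 0.062 to 0.12.

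Of the corepressors, 9 of 11 measured were higher, with a median of 0.064 and 0 called. It fell to 0.013 with quantile normalization and 0.0085 after cyclic loess, with 6 of 11 higher in each case. With arrays centred on their medians it was 0.10, with 10 of 11 higher. The smallest p was that of the histone deacetylase Hdac1, at 0.16 ± 0.094 (adjusted p = 0.857 in limma). Hdac3, another histone deacetylase, differed by 0.11 ± 0.11 and Nrip1, a ligand-dependent corepressor, by 0.075 ± 0.076.

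**Figure D4:**
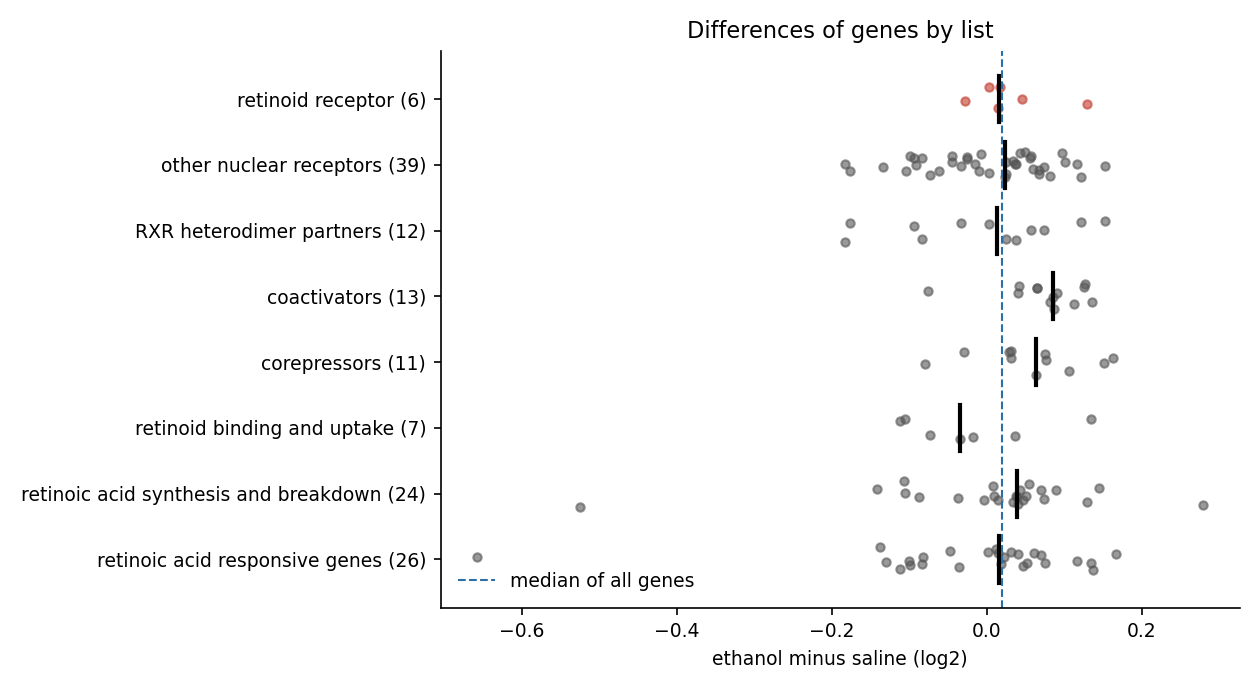
Ethanol minus saline (log2, horizontal axis) for each gene (points, spread vertically at random) of the receptor list (red) and 7 other lists (grey), with the measured number in brackets; black bars are list medians and the dashed line is the median of all genes, 0.020. The receptor genes lie between -0.029 and 0.13, inside the range of the other nuclear receptors; the points farthest left are Nrgn (-0.66) and Rdh13 (-0.52).

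Genes upstream of the receptors gave no call either. Of 24 genes that make or break down retinoic acid, 17 were higher and 7 lower, with a median of 0.038, and 1 had an unadjusted p under 0.05, near the 3.18% of all genes that did. This was Rdh13, a retinol dehydrogenase of mitochondria, at -0.52 ± 0.16 in the brighter of its 2 rows (adjusted p = 0.857 in limma). Its ethanol arrays (9.84 to 10.31) lay below all saline arrays (10.44 to 10.84), as in 4.72% of all genes. It was the 1 gene of the 24 whose groups did not overlap. The value of its other row is not given here. The synthesis enzymes Aldh1a1 and Aldh1a2 differed by 0.089 ± 0.113 and 0.0080 ± 0.17, and the hydroxylase Cyp26b1 by 0.014 ± 0.087. Of 7 genes of retinoid binding and uptake, 2 were higher and 5 lower, with a median of -0.035 (0.0038 with arrays centred on their medians) and 0 called; the smallest p was that of Stra6, a receptor for retinol uptake, at 0.13 ± 0.11. The carriers that bring retinoic acid to the receptors, Crabp2 and Fabp5, differed by -0.11 ± 0.099 and 0.036 ± 0.13.

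Downstream, 16 of 26 retinoic acid responsive genes were higher and 10 lower, with a median of 0.016, and 0 were called. The median was -0.0050 with quantile normalization, -0.010 after cyclic loess and 0.055 with arrays centred on their medians. The smallest p was that of the homeobox gene Cdx1, at 0.17 ± 0.099 (adjusted p = 0.857 in limma). In Tgm2, a transglutaminase induced by retinoic acid, all ethanol arrays (6.96 to 7.03) lay below all saline arrays (7.08 to 7.24). Its difference was -0.13 ± 0.079, with the same adjusted p of 0.857 in limma. Tgm2 was the only 1 of the 26 genes whose groups did not overlap, or 3.85%. Over all genes the ethanol arrays lay below all saline arrays in 4.72%, so this count is near that share. The farthest gene of the list, Nrgn, a calmodulin-binding protein of forebrain neurons, was singled out after its values were seen. It stood at 9.11 on saline array 1 and between 7.17 and 7.48 on the other 5 arrays.

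The arrays were alike in scale, with medians of 6.55 to 6.66, and correlations between arrays over all rows of 0.987 to 0.992. Markers were then set against the tissue label. The level, as a median, was 6.76 over 8 genes of dentate gyrus granule cells and 6.89 over 7 of CA1 pyramidal cells, beside 10.70 over 8 genes of cerebellar granule cells and 10.35 over 5 of Purkinje cells. Since binding strength differs from probe to probe, such levels do not rank transcripts, but bright cerebellar genes do not match a label of hippocampus alone. The summed linear level of the cerebellar granule cell list was 18132 to 19139 on the ethanol arrays and 17206 to 17370 on the saline arrays, without overlap, with 6 of 8 genes higher and 0 called. Of these 8 genes taken singly, 2 lay higher and 1 lower in ethanol without overlap, beside 5.74% and 4.72% of all genes. The granule cell sum is given for the deposited scaling only. The summed level of the 5 Purkinje cell genes did overlap, at 13953 to 14649 in ethanol and 13734 to 14080 in saline. The summed receptor level did not overlap. The median difference of the granule cell list, 0.061, was below the 0.085 of the brightest of the 10 groups of genes. The part of cerebellar cells in the receptor values was not tested. For the striatum, where Rarb and Rxrg are prominent, 7 of 10 markers were measured, among them Drd1 at 5.75 and Penk at 10.20. Their summed level, 2135 to 2157 in ethanol and 1837 to 2214 in saline, overlapped between the groups.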

How the data were processed

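Values were the authors' deposited log2 expression values, 1 column per array, in 41345 probe rows already summarized; the log2 scale was read from their range. How background and scale were corrected is not given in the sources used here. Per the submitters' processing notes the build was mm 10. Rows were named through the platform annotation (23521 with 1 gene, 1814 with several, 16010 with none here). Where a gene had several rows, the row with the highest mean was kept.

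Every row was fitted with limma 3.58.1 in R 4.3.3 (functions lmFit, then eBayes; 2-sided; group as the only term; 4 residual and 2.94 prior degrees of freedom), adjusted by Benjamini-Hochberg over all rows. The fit was tested on simulated data. The labels name no litters, so the p-values rest on the spread between pools; precision is limited by how many arrays there were. The receptors and gene lists were chosen with earlier results of these data known. From each list, genes with an unadjusted p under 0.05 or else the smallest p are named; other list genes are given for their role. Same-numbered arrays deviated together with correlations of 0.101, -0.056 and 0.038 over rows, so the numbers were not taken to pair them. RefSeq promoter windows (GRCm38.p6) matched all 6 receptor genes. Alternatives covered scaling, prior, filters, array weights, the replicate number and single arrays.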

Additional observations from a re-analysis of the deposited data

How the results depend on the processing

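No receptor was called in any of 89 refits, with adjusted p from 0.702 to 1.00 in limma, and 72 of the refits kept the direction. The sign turned in 17. A change of prior, row filter or replicate block leaves each difference as it was, so no sign could turn there. The 72 therefore include refits that could not test the direction. With array weights Rarb was at -0.022 and Rxrg at 0.0048; Rxrg was at 0.019 with quantile normalization, 0.010 with median centring and 0.015 after cyclic loess. Leaving out 1 array gave -0.037 to 0.13 for Rara, -0.044 to 0.047 for Rarb, -0.025 to 0.090 for Rarg, -0.018 to 0.073 for Rxra, 0.089 to 0.20 for Rxrb and -0.11 to 0.056 for Rxrg. It gave 0 to 2 receptors whose groups did not overlap (2 without saline array 3) and 0 to 1 rows called over the array (1 without saline array 3); fewer arrays make non-overlap more common by construction. With the replicate number as a block, Rxrb stayed at 0.13, as the balanced design fixes, and 0 rows were called. Rxrg lay below the filter on dim rows and has no value there, and averaging several rows per gene was not run because each receptor had 1. The scalings of the list medians were added after the data were seen.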
